A study of Mus musculus with 4 samples.

Results

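The shear stress and vascular tone genes are 10 genes through which endothelial cells sense blood flow and set the calibre of vessels: Piezo1, Map2k5, Mapk7, Mef2c, Klf2, Klf4, Klf6, Nos3, Edn1 and Ece1. They were chosen by name, and all 10 were found among the 21578 genes of the joined count tables. All 10 also passed the filter on low counts, which left 15909 genes for testing. The RNA came from brain endothelial cells of C57BL/6 mice at postnatal day 0, purified by flow cytometry after labelling for CD31, an endothelial surface protein, and CD45, a leukocyte protein that microglia also carry. The gates, and whether the sorted cells were kept in culture before RNA isolation, are not given in the sources used here. There were 2 libraries from Pd1fl/fl mice, which carried the floxed Pd1 (Pdcd1) allele and served as controls, and 2 from Pd1cKO-Tie2 mice, in which Cre recombinase under the Tie2 promoter deletes the same floxed allele. Tie2-Cre is active in endothelial cells and also in blood-forming cells and their progeny. The sources used here do not say whether each library came from 1 animal or from pooled animals, so the p-values measure only the spread between these libraries, which may be technical.

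Blood flowing over the endothelium exerts shear stress, which cells read through ion channels such as PIEZO1 and through receptors at their junctions. Steady flow activates the kinases MEK5 and ERK5, ERK5 activates transcription factors of the MEF2 family, and these raise KLF2 and KLF4. The KLF factors in turn raise endothelial nitric oxide synthase, which relaxes vessels, and restrain endothelin-1, which constricts them. In the perinatal brain the same genes take part in the growth and quiescence of vessels and in the matching of flow to the needs of neural tissue.

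The total counts were 14359990 and 13715837 in Pd1fl/fl libraries 1 and 2 and 24147311 and 14157027 in Pd1cKO-Tie2 libraries 1 and 2, so that 3 counts corresponded to 0.124 to 0.219 CPM, that is, counts scaled to a library of 1000000. The targeted gene, Pdcd1, had 32 counts in Pd1fl/fl library 1 and 0 in each of the other 3 libraries. With a control library also at 0, these counts could not serve as a check of the deletion or of the second control library. All 18 endothelial markers examined were counted in every library, with a summed level of 17300 to 23200 CPM after TMM scaling, which corrects for differences in composition between libraries and was used for all levels given here. Markers of other cells were present as well: those of microglia and macrophages summed to 2440, 2900, 953 and 2100 CPM in the order Pd1fl/fl 1, Pd1fl/fl 2, Pd1cKO-Tie2 1 and Pd1cKO-Tie2 2, and those of neutrophils and monocytes to 1170, 385, 186 and 228 CPM. Pd1fl/fl library 1 stood apart through its neutrophil transcripts. It was also the highest in markers of pericytes and smooth muscle, which summed to 5970, 3890, 4010 and 4000 CPM in the same order. Those of fibroblasts and meninges summed to 147, 59.6, 100 and 107 CPM. With bulk RNA, fewer cells of a type and less RNA per cell cannot be told apart.

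Stretches upstream of the RefSeq start sites of Klf2, Klf4 and Edn1, genes at which the MEF2 and KLF steps of the flow pathway act, are given from mouse build GRCm38.p6, 5′ to 3′ along the transcribed strand. Capitals mark the motif of MEF2, the A/T-rich element bound by the factors that ERK5 activates, and CACCC or its complement GGGTG, the core of sites bound by KLF factors. The stretches hold bases upstream of the annotated transcripts only.
Klf2, chr8:72318812-72319032, plus strand: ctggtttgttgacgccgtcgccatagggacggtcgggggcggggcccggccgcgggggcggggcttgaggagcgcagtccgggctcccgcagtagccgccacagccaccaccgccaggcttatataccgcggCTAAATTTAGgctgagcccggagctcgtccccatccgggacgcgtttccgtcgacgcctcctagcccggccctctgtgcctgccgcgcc
Klf4, chr4:55532476-55532725, minus strand: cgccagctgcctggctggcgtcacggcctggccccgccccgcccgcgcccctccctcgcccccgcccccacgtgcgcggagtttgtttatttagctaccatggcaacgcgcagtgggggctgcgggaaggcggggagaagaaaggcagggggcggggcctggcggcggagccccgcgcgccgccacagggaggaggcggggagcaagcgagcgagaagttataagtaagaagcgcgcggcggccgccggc
Edn1, chr13:42301226-42301475, plus strand: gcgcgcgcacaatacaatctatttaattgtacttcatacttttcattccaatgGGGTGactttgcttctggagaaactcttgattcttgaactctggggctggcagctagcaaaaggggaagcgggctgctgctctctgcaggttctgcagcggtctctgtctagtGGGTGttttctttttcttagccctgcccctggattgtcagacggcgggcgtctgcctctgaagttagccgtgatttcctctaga

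Windows of RefSeq were matched for 9 of the 10 genes, all but Nos3, with 15 windows in all because Ece1, Mapk7 and Mef2c have more than 1 start site. Both strands of the 250 bases before each start were searched. The MEF2 motif was present in 1 of the 15 windows, that of Klf2, where it began at position -118 from the RefSeq start; 2.92% of all 32851 promoter windows of that length held it. CACCC or GGGTG was present in 10 of the 15 windows, from 6 of the 9 genes, against 52% of all windows. The Edn1 stretch held 2 such matches and the Klf4 stretch none. The match in the Klf2 window, at position -19, lies inside the annotated transcript and so outside the stretch given above. Windows of the same gene can overlap and share a match, and a match of letters is a description of the sequence and not evidence of binding.

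The comparison of Pd1cKO-Tie2 with Pd1fl/fl asked whether deletion of PD-1 in Tie2-expressing cells altered the transcripts of the flow pathway. None of the 10 genes passed the criterion of the study, which asked for a 2-fold difference or more together with an unadjusted p not above 0.05, against a background of 4.02% of all 15909 genes tested (640 genes). No member had an unadjusted p under 0.05 in the edgeR quasi-likelihood test, and the smallest was 0.0863, for Nos3. No gene of the whole table had an adjusted p under 0.05 in that test, although 1016 had an unadjusted p under 0.05, and DESeq2 on the same filtered genes gave 116 with an adjusted p under 0.05, none of them a member. The median log2 fold change of the 10 genes was 0.00, that of all tested genes was also 0.00 after rounding, and 5 members had a positive and 5 a negative value. The groups did not overlap for 4 members: Nos3 and Ece1 were above the controls in both Pd1cKO-Tie2 libraries, which held for 17.7% of all tested genes, and Klf2 and Klf4 were below, which held for 18.1%.

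**Figure D1:**
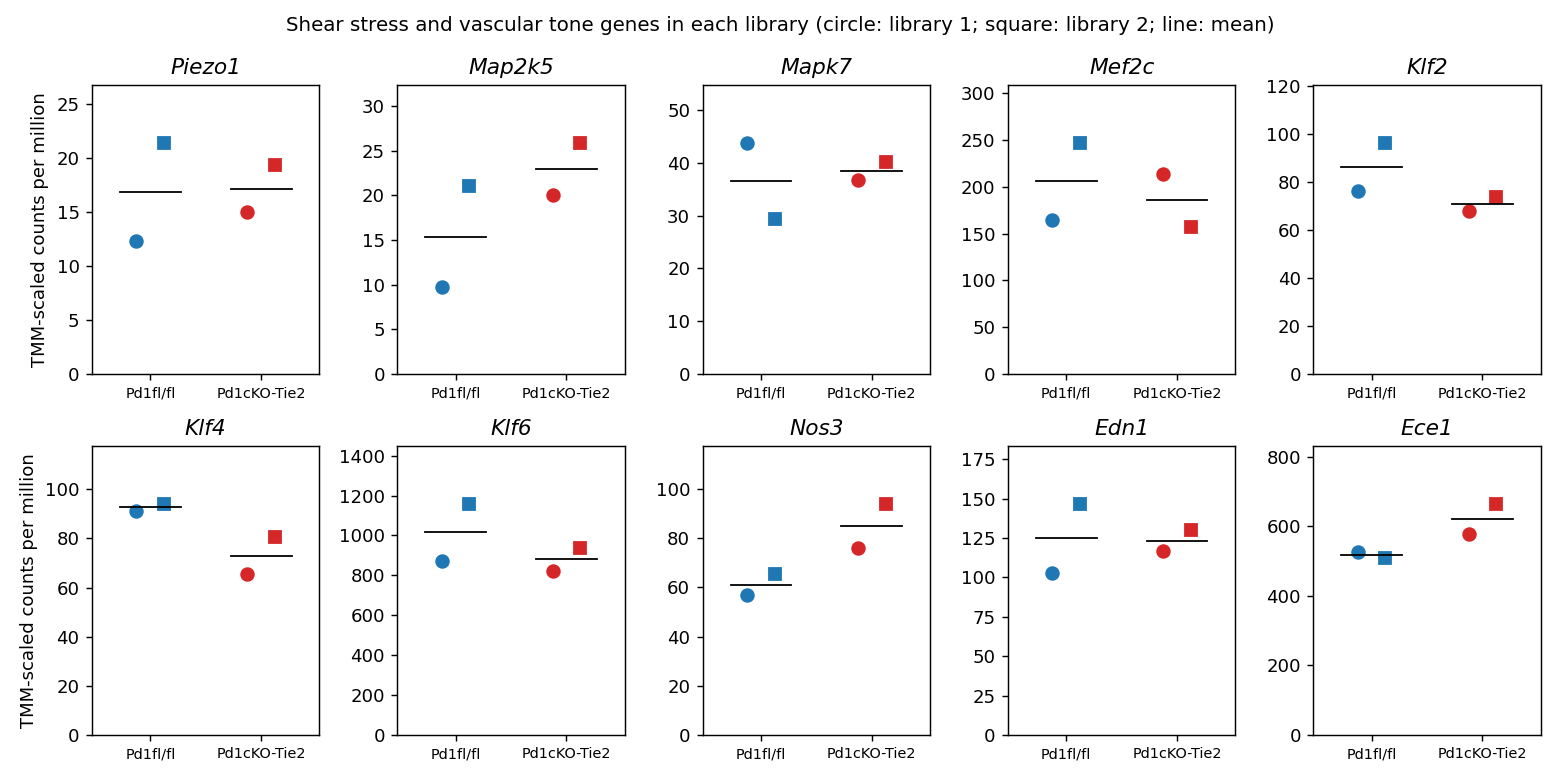
TMM-scaled CPM (y axis, from 0, 1 panel a gene) of the 10 genes in each library, by genotype (x axis). Blue marks Pd1fl/fl and red Pd1cKO-Tie2, circles are library 1 and squares library 2, and each line is the mean of 2 libraries; the genotypes do not overlap for Klf2, Klf4, Nos3 and Ece1.

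Piezo1 (chr8:122481698-122551329, minus strand, gene coordinates in GRCm38) encodes a mechanically gated cation channel of the plasma membrane. Its counts were 177 and 304 in the Pd1fl/fl libraries and 359 and 263 in the Pd1cKO-Tie2 libraries, or 12.3 and 21.4 CPM against 15 and 19.3 CPM. Both Pd1cKO-Tie2 libraries lay between the 2 controls. The log2 fold change was 0.02 (SE 0.44), and its 95% interval, from 0.482-fold to 2.15-fold, reached the size of the criterion in both directions. The exons of Piezo1 share 2441 bases with Ctu2 on the opposite strand, and 22.7% of its 50-base stretches also occur in Ctu2. Ctu2 itself had 213, 206, 478 and 232 counts, so with a counting strand that is not given in the sources used here, the Piezo1 values are uncertain.

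Map2k5 (chr9:63163768-63377902, minus strand) encodes MEK5, the kinase that activates ERK5. It had 140 and 299 counts in the controls and 480 and 353 in the Pd1cKO-Tie2 libraries, or 9.71 and 21.1 CPM against 20.1 and 25.9 CPM. Pd1fl/fl library 1 was low, and the other 3 libraries lay close together. The fold change was the largest of the 10 genes, at 0.58 on the log2 scale (SE 0.48, adjusted p = 0.991, edgeR), but the 2 controls differed from each other by more than that, by 1.12 on the log2 scale. Without Pd1fl/fl library 1 the log2 fold change was 0.13, and without Pd1fl/fl library 2 it was 1.24.

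Mapk7 (chr11:61488812-61494406, minus strand) encodes ERK5, whose activity is set by phosphorylation rather than by its transcript alone. The counts were 631, 417, 877 and 549, and the levels 43.8 and 29.4 CPM in the controls against 36.7 and 40.2 CPM in the Pd1cKO-Tie2 libraries. The Pd1cKO-Tie2 libraries again lay within the span of the controls, and the log2 fold change was 0.07 (SE 0.31). The ratio of Mapk7 to Map2k5, per kilobase of exon, was 3.32 in Pd1fl/fl library 1 and 1.03, 1.35 and 1.15 in Pd1fl/fl library 2 and the 2 Pd1cKO-Tie2 libraries, so that this ratio set 1 control apart and not the genotypes.

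Mef2c (chr13:83504034-83667080, plus strand) encodes the MEF2 factor most used in developing endothelium, and it is also transcribed in neurons and microglia. It had 2374 and 3507 counts in the controls and 5103 and 2137 in the Pd1cKO-Tie2 libraries, or 165 and 247 CPM against 214 and 157 CPM. The genotypes overlapped, each with 1 high and 1 low library, and the log2 fold change was -0.15 (SE 0.26). The sum of the 17 neuronal markers with counts, 1080, 1510, 1320 and 1070 CPM, ran through the libraries in the same order as Mef2c. The part of neuronal RNA in the Mef2c values was not tested.

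The 3 KLF factors had negative fold changes of similar size. Klf2 (chr8:72319033-72321656, plus strand), the flow-induced factor that keeps endothelium quiescent, had 1098 and 1369 counts in the controls and 1623 and 1010 in the Pd1cKO-Tie2 libraries, or 76.2 and 96.4 CPM against 67.9 and 74.0 CPM. The groups did not overlap, although the nearest libraries, at 76.2 and 74.0 CPM, were almost level. The means were 86.3 ± 14.3 and 71.0 ± 4.28 CPM (SD, n = 2 each), and the log2 fold change was -0.28 (SE 0.22, adjusted p = 0.983, edgeR). It ranged from -0.44 without Pd1fl/fl library 1 to -0.10 without Pd1fl/fl library 2.

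Klf4 (chr4:55527143-55532466, minus strand), a close relative of Klf2 with shared endothelial targets, had 1314 and 1337 counts in the controls and 1560 and 1099 in the Pd1cKO-Tie2 libraries. The levels were 91.2 and 94.2 CPM against 65.3 and 80.5 CPM, with means of 92.7 ± 2.14 and 72.9 ± 10.8 CPM (SD, n = 2 each). The 2 controls were within 0.05 of each other on the log2 scale and both above the Pd1cKO-Tie2 libraries. The log2 fold change of -0.35 (SE 0.21, adjusted p = 0.941, edgeR) had a 95% interval of 0.545-fold to 1.13-fold, which lies within 2-fold of no change. The value was -0.50 without Pd1cKO-Tie2 library 2 and -0.19 without Pd1cKO-Tie2 library 1.

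Klf6 (chr13:5861482-5870394, plus strand), a KLF factor that is induced quickly after injury of the endothelium, was the most abundant member. It had 12539 and 16503 counts in the controls and 19632 and 12805 in the Pd1cKO-Tie2 libraries, or 870 and 1160 CPM against 822 and 938 CPM. The groups overlapped, and the log2 fold change was -0.21 (SE 0.17, adjusted p = 0.991, edgeR), or 0.02 without Pd1fl/fl library 2. The ratio of Klf6 to Klf2, per kilobase of exon, was 4.8, 5.07, 5.09 and 5.33 across the 4 libraries, so the 2 transcripts kept nearly the same proportion. The genotypes did not overlap in this ratio, although the nearest libraries, at 5.07 and 5.09, were almost level.

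Klf2, Klf4 and Klf6 are short-lived transcripts, as are those of the immediate early genes, which cells transcribe within minutes of a stimulus. Of the 22 immediate early genes listed, 19 were tested. None passed the criterion, 16 of the 19 had a negative log2 fold change, and the median was -0.46. An unadjusted p under 0.05 with a lower level in Pd1cKO-Tie2 was found for 5 of the 19, against 3.55% of all tested genes. Fos, a subunit of the AP-1 factor, had 28494, 43057, 41484 and 25995 counts and a log2 fold change of -0.46 (SE 0.21). Egr1, a zinc finger factor, had 26631, 37791, 29097 and 22053 counts and a log2 fold change of -0.67 (SE 0.22). Without Pd1fl/fl library 2 these values were -0.12 for Fos and -0.38 for Egr1, and the median of the list was -0.11. With scaling to the endothelial markers the median was -0.82 and 5 genes passed with a lower level. That scaling shifted the median of all tested genes to -0.357. It put 995 genes past the criterion, of which 13.9% were higher in Pd1cKO-Tie2. The summed level of the list was 8870 and 12800 CPM in the controls and 7510 and 8610 CPM in the Pd1cKO-Tie2 libraries. Klf2 and Klf4 had the same order of libraries, and Klf6 did not. Whether the difference in the immediate early genes had a part in the KLF values was not tested.

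Of 10 other members of the KLF family that were tested, 5 had a positive and 5 a negative log2 fold change, the median was 0.01, and none passed the criterion. Klf7, the most abundant of them in CPM, had 2308, 2170, 4443 and 1835 counts and a log2 fold change of 0.03 (SE 0.21). Klf10 had 1772, 1322, 3242 and 1923 counts and a log2 fold change of 0.36 (SE 0.21).

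Nos3 (chr5:24364810-24384474, plus strand) encodes endothelial nitric oxide synthase, the source of the nitric oxide that relaxes vascular smooth muscle. It had 820 and 929 counts in the controls and 1815 and 1285 in the Pd1cKO-Tie2 libraries, or 56.9 and 65.4 CPM against 76.0 and 94.1 CPM. The groups did not overlap, and the means were 61.2 ± 6.05 and 85.0 ± 12.8 CPM (SD, n = 2 each). The difference, 1.39-fold with a 95% interval of 0.937-fold to 2.06-fold, did not pass the test (log2 fold change 0.47, SE 0.23, adjusted p = 0.865, edgeR). Leaving out each library in turn gave log2 fold changes from 0.32 to 0.63. The exons of Nos3 overlap those of Gm15587 by 1040 bases and of Atg9b by 294 bases on the opposite strand. Of its 50-base stretches, 20.0% are shared with these genes, which had 4 to 35 and 1 to 58 counts. As the counting strand is not given, the Nos3 values are uncertain like those of Piezo1, its levels per kilobase and its ratios included.

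Ece1 (chr4:137862237-137965229, plus strand) encodes the membrane protease that cleaves the inactive precursor of endothelin to its active form. It had 7600 and 7217 counts in the controls and 13819 and 9088 in the Pd1cKO-Tie2 libraries, or 527 and 508 CPM against 578 and 666 CPM. The groups did not overlap, and the controls agreed within 0.05 on the log2 scale. The difference was 1.2-fold (95% interval 0.952-fold to 1.52-fold, adjusted p = 0.904, edgeR).

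Like Nos3 and Ece1, the endothelial markers were higher in Pd1cKO-Tie2. All 18 markers had a positive log2 fold change, with a median of 0.34 and no overlap between the genotypes, and 10 of the 18 had an unadjusted p under 0.05 with a higher level in Pd1cKO-Tie2, against 2.84% of all tested genes. None passed the 2-fold criterion. The summed level was 18200 and 17300 CPM in the controls and 22100 and 23200 CPM in the Pd1cKO-Tie2 libraries. Ece1 had the same order of libraries, and Nos3 did not, as its controls ran the other way. Scaled to these markers instead of by TMM, which shifted the median of all genes to -0.36 (log2), the log2 fold change of Nos3 was 0.12 and that of Ece1 reversed to -0.09, while those of Klf2, Klf4 and Klf6 were -0.64, -0.70 and -0.57, each with an unadjusted p under 0.05, as had 10.4% of all tested genes in that direction, and with adjusted p of 0.409, 0.389 and 0.391 (edgeR). Whether a different share of endothelial RNA underlay the Nos3 and Ece1 values was not tested. Scaling to the markers takes their level per endothelial cell as equal in both genotypes, which was not tested either.

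Edn1 (chr13:42301476-42307990, plus strand) encodes the precursor of endothelin-1, the strongest constrictor made by endothelium. It had 1488 and 2082 counts in the controls and 2794 and 1773 in the Pd1cKO-Tie2 libraries, or 103 and 147 CPM against 117 and 130 CPM. Both Pd1cKO-Tie2 libraries lay between the controls. The log2 fold change was -0.02 (SE 0.23, adjusted p = 1, edgeR), with a 95% interval of 0.665-fold to 1.47-fold.

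The proportions between members, per kilobase of exon, were compared within each library, since a ratio does not depend on the scaling. Of 8 ratios computed, 4 did not overlap between the genotypes and 4 did. No such share was computed for ratios of other genes, and the levels of 35.8% of all tested genes did not overlap. The ratio of Edn1 to Nos3 was 3.51 and 4.33 in the controls and 2.97 and 2.67 in the Pd1cKO-Tie2 libraries, a mean of 3.92 ± 0.583 against 2.82 ± 0.218 (SD, n = 2 each). The ratio of Nos3 to Klf2 was 0.334 and 0.303 in the controls and 0.5 and 0.569 in the Pd1cKO-Tie2 libraries. The genotypes did not overlap in these 2 ratios. They also did not overlap in Klf6 to Klf2, given above, or in Ece1 to Nos3, at 7.23 and 6.06 against 5.94 and 5.51. They overlapped in the ratio of Edn1 to Ece1, at 0.485 and 0.715 in the controls and 0.501 and 0.483 in the Pd1cKO-Tie2 libraries, where Pd1fl/fl library 2 was the high one. With 2 libraries against 2, an exact two-sided permutation test cannot give a p below 0.333, so the ratios are given as descriptions, and they repeat the differences of their genes given above.

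**Figure D2:**
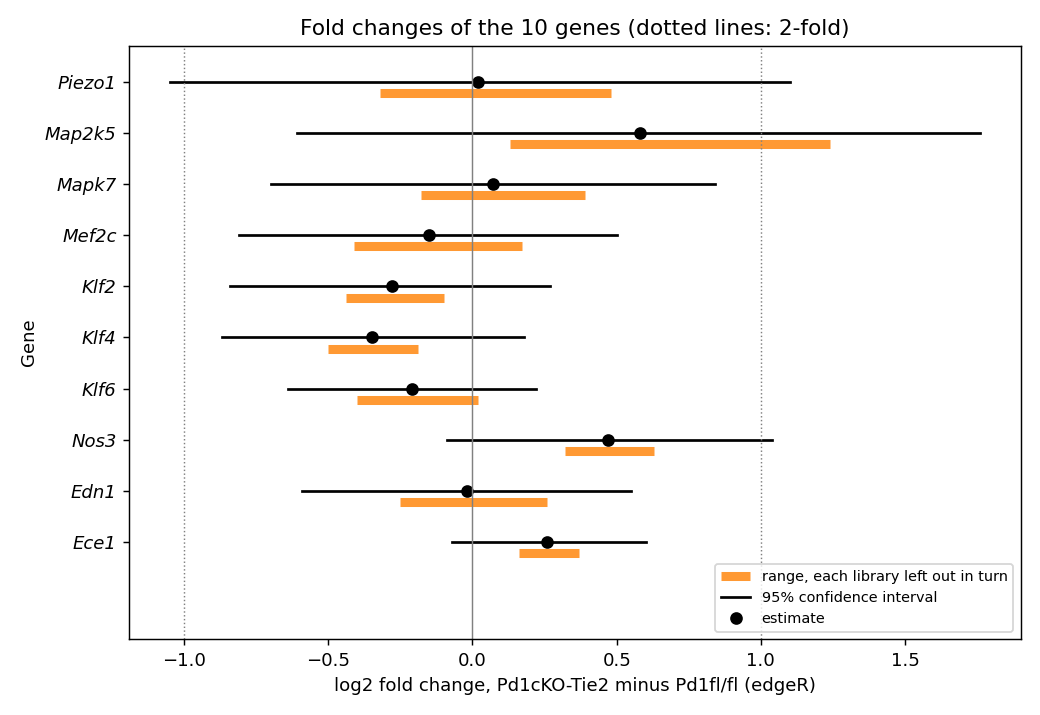
Log2 fold change of each gene (x axis, Pd1cKO-Tie2 minus Pd1fl/fl, edgeR) with its 95% confidence interval (black line) and the range of estimates with each library left out in turn (orange bar). The interval of every gene crosses 0, and Map2k5 and Piezo1 have the widest.

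Compared per kilobase of exon, which allows levels of different genes to be set roughly side by side, the effector genes stood above the sensor and the kinases. The length was that of all annotated exons of a gene merged, 15715 bases for Mef2c and 9935 for Piezo1. This can understate genes with many alternative exons. Klf6 was the highest, with a mean of 216 CPM per kb over the 4 libraries (range 187 to 265), followed by Ece1 at 108 CPM per kb (95.9 to 126). Edn1, at 58.1 CPM per kb (48.3 to 68.6), and Klf2, at 42.6 CPM per kb (36.8 to 52.2), overlapped in range. Klf4 followed at 27.1 CPM per kb (21.4 to 30.9) and did not overlap with Klf2.

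Further down, the ranges of neighbours overlapped. Nos3 had a mean of 17.7 CPM per kb, Mef2c of 12.4, Mapk7 of 8.54 and Map2k5 of 5.92, and neighbours in this order overlapped, as did Klf4 and Nos3. Piezo1 was the lowest, at 1.71 CPM per kb (1.24 to 2.16), below the lowest library of Map2k5 at 3.00 CPM per kb. Its level is uncertain through the overlap with Ctu2 given above. Among all tested genes the mean level per kb placed Klf6 at the percentile 99.1 and Piezo1 at the percentile 31.7.

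**Figure D3:**
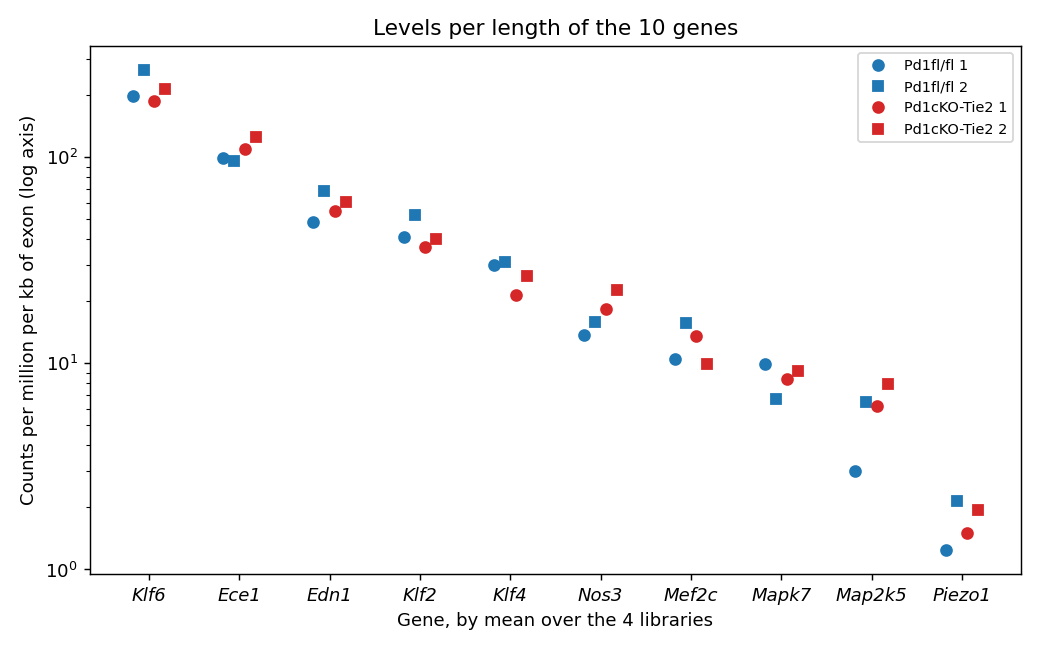
Level of each gene per length (y axis, TMM-scaled CPM per kb of exon, log axis) in the 4 libraries, with genes ordered by their mean (x axis). Klf6 lies between 187 and 265 and Piezo1 between 1.24 and 2.16 in the same unit, and the values of neighbouring genes overlap from Klf4 to Map2k5.

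The other genes of the pathway were examined by lists, which leave the 10 genes out. The background for the calls in every list is the 4.02% of all 15909 tested genes that passed the criterion. Of 20 further shear sensors and junctional proteins, all were tested and none passed the criterion, with a median log2 fold change of 0.28, which became -0.07 when scaled to the endothelial markers. Of these 20 genes, 5 are also in the endothelial marker list. Kdr, the main receptor of VEGF-A and part of the junctional sensor, had 15380, 15164, 31230 and 17439 counts and a log2 fold change of 0.28 (SE 0.10). S1pr1, the receptor of sphingosine-1-phosphate, had 7865, 7929, 17023 and 10282 counts and a log2 fold change of 0.41 (SE 0.12). Both were below 2-fold.

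Of 16 further genes of the MEK5-ERK5 cascade and the MEF2 family, 15 were tested and none passed the criterion, with a median log2 fold change of 0.22. Sqstm1, an adaptor of the cascade and of autophagy, had 11034, 10512, 23149 and 13275 counts and a log2 fold change of 0.37 (SE 0.11). Ywhab, a 14-3-3 protein, had 9322, 8023, 15651 and 8624 counts and a log2 fold change of 0.09 (SE 0.13). Mef2b was at 0 in every library.

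Among 18 tested genes listed as raised by flow through KLF2 and KLF4, the median log2 fold change was 0.09 and 1 gene passed the criterion, Cyp1b1, a cytochrome P450 enzyme. It had 87 and 71 counts in the controls and 0 in both Pd1cKO-Tie2 libraries. This is at least 29-fold lower, with the lower control library set against 0.173 CPM, the mean floor at 3 counts in each Pd1cKO-Tie2 library. The adjusted p was 0.735 in edgeR and 0.00443 in DESeq2 on the same filtered genes. Slc6a6, the taurine transporter, had 9465, 7762, 17962 and 10226 counts and a log2 fold change of 0.32 (SE 0.14), and Palmd, a cytosolic protein of endothelium, had 7704, 7104, 13334 and 7489 counts and a log2 fold change of 0.10 (SE 0.13).

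Among 13 tested genes listed as lowered by steady flow, the median log2 fold change was -0.32 and 1 gene passed, Vcam1, the adhesion molecule that binds leukocytes. Its counts were 643 and 783 in the controls and 506 and 303 in the Pd1cKO-Tie2 libraries, both of the latter below the controls. Vcam1 fell by 1.20 on the log2 scale (SE 0.28, adjusted p = 0.735, edgeR) and stayed past the criterion under all 18 alternative settings. Cyr61, a matricellular protein, had 5867, 10671, 10746 and 6570 counts and a log2 fold change of -0.32 (SE 0.29). Apln, the ligand of the apelin receptor, had 2747, 1807, 5691 and 3489 counts and a log2 fold change of 0.64 (SE 0.23).

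Of 26 tested genes of nitric oxide synthesis and cGMP signalling, the median log2 fold change was 0.06 and 1 gene passed, Arg1, the arginase that competes with nitric oxide synthase for arginine. It had 285 and 632 counts in the controls and 177 and 123 in the Pd1cKO-Tie2 libraries and fell by 1.97 on the log2 scale (SE 0.50, adjusted p = 0.735, edgeR). Without Pd1fl/fl library 2 the log2 fold change was -1.27 and the call was lost. Arg1 is also a transcript of macrophages. Slc7a1, the main arginine transporter, had 15265, 11894, 30432 and 16761 counts and a log2 fold change of 0.40 (SE 0.15).

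None of the 6 tested genes of the endothelin system besides Edn1 and Ece1 passed. The receptor gene Ednrb had 3787, 2483, 3952 and 2350 counts and a log2 fold change of -0.37 (SE 0.23), and Ednra had 1007, 730, 1134 and 744 counts and a log2 fold change of -0.25 (SE 0.26). Without Pd1fl/fl library 1 these were -0.05 and -0.01, and without Pd1fl/fl library 2 they were -0.64 and -0.45. Both genes were highest in Pd1fl/fl library 1, at 263 CPM for Ednrb and 69.9 CPM for Ednra. The summed markers of pericytes and smooth muscle were highest in the same library. The part of these cells in the Ednrb and Ednra values was not tested. Of 21 tested genes of other vasoactive mediators, 2 passed, against 4.02% of all tested genes. Both were cyclooxygenases that start prostanoid synthesis. Ptgs1 had 998 and 568 counts in the controls and 462 and 444 in the Pd1cKO-Tie2 libraries and fell by 1.08 on the log2 scale (SE 0.41). Ptgs2 had 557 and 649 counts in the controls and 169 and 276 in the Pd1cKO-Tie2 libraries and fell by 1.64 (SE 0.54). The adjusted p was 0.753 and 0.735 (edgeR). The call was lost without Pd1fl/fl library 1 or without Pd1cKO-Tie2 library 1 for Ptgs1 (log2 fold changes -0.63 and -0.74), and without Pd1fl/fl library 2 for Ptgs2 (-1.51).

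The markers of microglia and macrophages were lower in Pd1cKO-Tie2 along with Vcam1, Arg1, Ptgs1 and Ptgs2. All 15 had a negative log2 fold change, with a median of -0.84, and 3 passed the criterion, namely Tmem119, Itgam and Trem2. This count rested on Pd1cKO-Tie2 library 1: without it 0 passed and the median was -0.37, and without Pd1cKO-Tie2 library 2 there were 13, with a median of -1.55. Their summed level was 2440 and 2900 CPM in the controls and 953 and 2100 CPM in the Pd1cKO-Tie2 libraries, and none of the 15 was at 0 in any library. Of 12 markers of radial glia and astrocytes, 10 had a negative log2 fold change and 2, Fabp7 and Hes5, passed. Without Pd1cKO-Tie2 library 2 the count was 0, and without Pd1cKO-Tie2 library 1 it was 6. The summed level was 1360, 1390, 1020 and 907 CPM. The part of these cells in the values of the 4 genes was not tested.

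**Figure D4:**
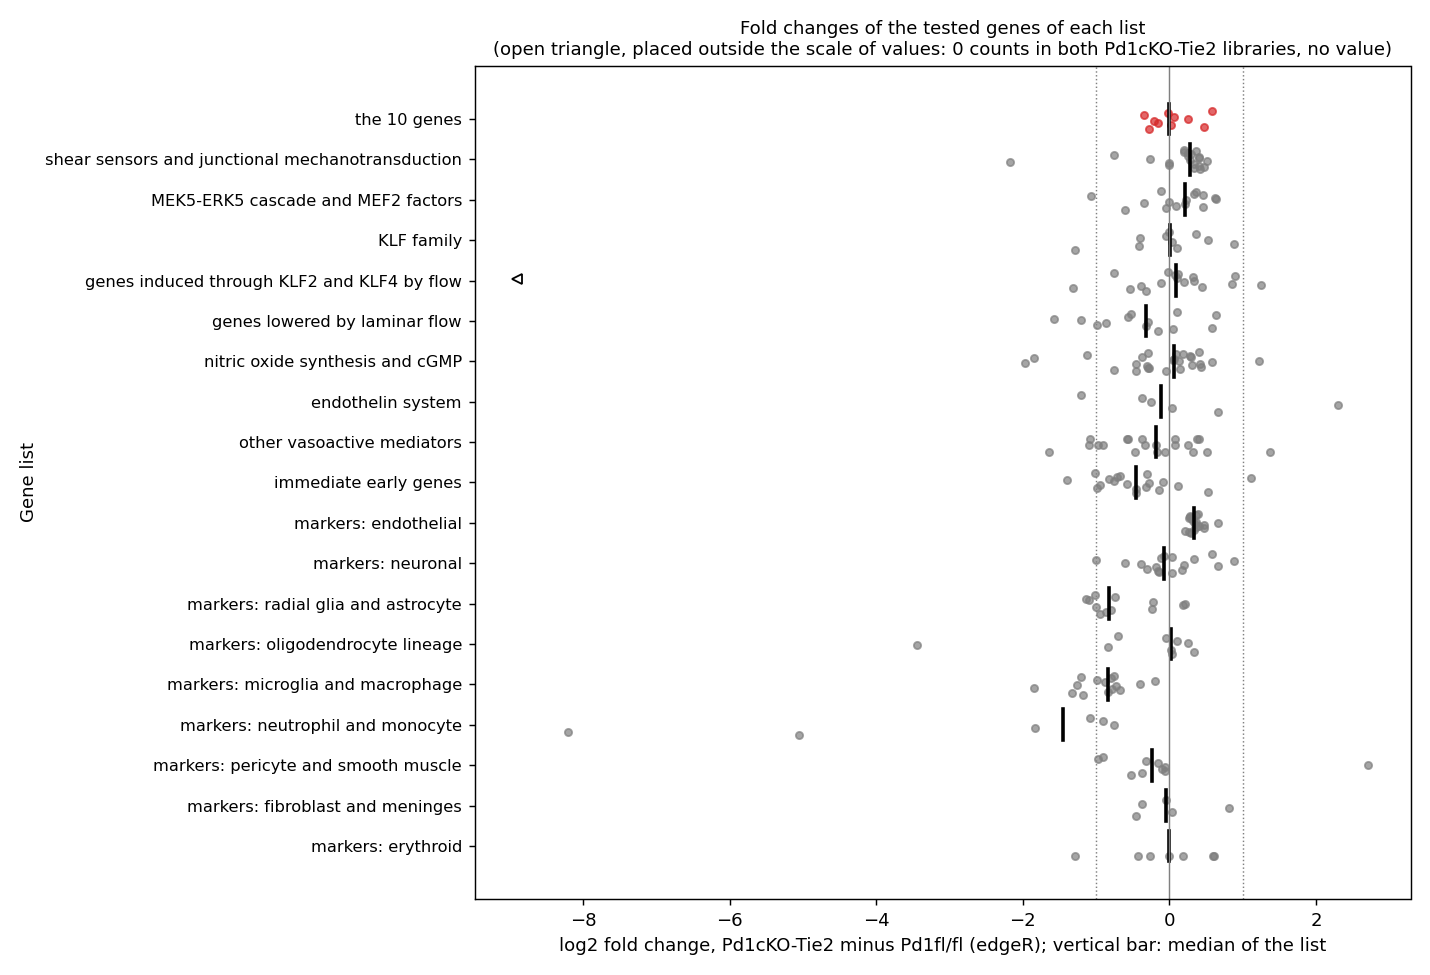
Log2 fold change (x axis, Pd1cKO-Tie2 minus Pd1fl/fl, edgeR) of every tested gene (points) in each list (y axis), with the median of the list as a vertical bar and dotted lines at 2-fold. The 10 genes, in red, are centred on 0 within 2-fold, the endothelial markers have a median of 0.34, and the immediate early genes and the microglial markers have medians of -0.46 and -0.84; Cyp1b1, with 0 counts in both Pd1cKO-Tie2 libraries, is an open triangle with no value.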

How the data were processed

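RNA of postnatal day 0 brain endothelial cells was sequenced in 4 libraries. The deposited tables hold read counts per gene, which the authors made, per the processing notes, with TopHat2 2.0.12, Bowtie2 2.2.3 and HTSeq 0.6.0; the notes name mm9, while 90.0% of the gene positions in the tables, those of the 10 genes included, equal GENCODE M21 (GRCm38). The deposited CPM columns, which the authors computed from the same counts with zeros replaced by 0.5 reads, served only to recover the library totals. The columns of the authors' own comparisons (fold changes and p-values) were not used for any result. The 4 pairwise tables were joined to 21578 genes; 10 broken lines were skipped, and genes without an entry in a library counted as 0 there. Pd1cKO-Tie2 library 2 was assigned by genotype alone. Counts outside the listed genes were 0.00495% to 0.0107% of each total.

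edgeR 4.0.16 (R 4.3.3; TMM scaling, default expression filter, quasi-likelihood test) compared the genotypes, with Benjamini-Hochberg adjustment over 15909 genes; the criterion, 2-fold and p of 0.05 or less, was that of the study. The fit was tested on simulated data. Alternatives used DESeq2 1.42.0, limma 3.58.1, other filters and scalings, GC and length trends, thinning, a replicate block and each library left out. Scaling to endothelial markers and edgeR's likelihood ratio test were added after seeing the data. Members and gene lists were chosen with earlier results of these data known. Named beside the members were list genes past the criterion and, where a list had 0 or 1, its 2 of largest mean CPM. One list gene that this rule names is not reported here.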

Additional observations from a re-analysis of the deposited data

How the results depend on the processing

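No member passed the criterion under any of the 18 alternatives, and of 180 recomputed member fold changes 165 kept their direction, 15 reversing. The count of all genes past the criterion lay between 445 and 936 under the other settings, was 689 to 877 with each library left out, and was 995 with scaling to the endothelial markers, where 13.9% of calls were higher in Pd1cKO-Tie2 against 35.0% with TMM and from 19.7% without Pd1cKO-Tie2 library 1 to 55.4% without Pd1fl/fl library 2. The number of members without overlap was 4 by TMM. It was 5 to 9 with each library left out (9 without Pd1fl/fl library 1, 8 without Pd1fl/fl library 2), since a lone library cannot overlap itself. Among all tested genes 35.8% did not overlap with all 4 libraries, and this share was not computed with a library left out. The counts with a library left out therefore have no background and cannot be read as separation of the genotypes. Log2 fold changes near 0 reversed: Piezo1 to -0.05 with library size scaling, -0.04 with the GC trend removed, -0.34 with endothelial scaling, and -0.32 and -0.16 without Pd1fl/fl library 1 and Pd1cKO-Tie2 library 2 (0.48 without Pd1fl/fl library 2); Edn1 to 0.00 with the block, 0.03 with the GC trend removed, and 0.26 and 0.07 without Pd1fl/fl library 2 and Pd1cKO-Tie2 library 1. Without Pd1fl/fl library 2, Klf6 was 0.02, Mapk7 -0.18, Mef2c 0.17, Cyr61 0.20 and Ywhab -0.00, and without Pd1cKO-Tie2 library 2, Mef2c was 0.06. Klf7 was -0.02 with library size scaling and -0.21 without Pd1cKO-Tie2 library 1 (0.25 without Pd1cKO-Tie2 library 2). Endothelial scaling gave -0.09 for Ece1, -0.27 for Mapk7, -0.08 for Kdr, -0.26 for Ywhab, -0.31 for Klf7, -0.03 for Slc6a6 and -0.25 for Palmd. The cause was not tested. Without Pd1fl/fl library 1, Klf6 was -0.40 with an unadjusted p under 0.05, Mapk7 0.39, Mef2c -0.41, Ywhab 0.19 and Cyr61 -0.69.

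The replicate block by column number gave 445 genes and 0 members past the criterion; the numbers share no stated animal or day, and deviations of same-numbered libraries correlated at -0.0263, so they were not treated as pairs. Under the block the call of Ptgs1 was lost (log2 fold change -1.07). The common biological coefficient of variation over all tested genes was 0.61, and that of the members ran from 0.138 (Ece1) to 0.374 (Map2k5). With 2 libraries a genotype, the 95% intervals given for the members show the range of differences compatible with these data.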
